A study of Mus musculus with 6 samples.

Results

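The libraries compared here come from cultured mouse retinal ganglion cells (RGCs) transduced with AAV for wild-type Sox11 or with AAV for the mutant Sox11 K91A, whose lysine 91 was exchanged for alanine. They were chosen by their labels alone and make up 4 of the 6 libraries of the study, 2 with wild-type Sox11 (WT replicates 1 and 2) and 2 with Sox11 K91A (K91A replicates 1 and 2). The other 2 libraries received a control AAV and served here to estimate the spread and as a background level. All 6 libraries share the AAV2 vector, the GFP reporter and the culture. RGCs were purified with an antibody to CD90.1 (Thy1) and plated at 250000 cells per well in medium with forskolin, BDNF and CNTF. AAV was given 4 h after plating at about 100000 vector genomes per cell, with medium changes 5.5 and 24 h after exposure, and RNA was taken 72 h after plating. The protocols give the age of the donor animals both as embryonic day 18 and as postnatal day 2, while the names of the deposited tables give postnatal day 0. The study's methods name C57BL/6 mice of both sexes. The endogenous Sox11 gene stayed in all cells, so K91A was added to wild-type Sox11 and did not replace it. The labels do not say whether the 2 replicates of a group came from separate cultures, so p-values measure the spread between these libraries, which may be in part technical.

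Sox11 belongs with Sox4 and Sox12 to the SoxC group of transcription factors, which bind DNA through a high mobility group domain and act in neurons as they differentiate. SUMO is a small protein that a conjugating enzyme attaches to lysines of its targets, and SUMO proteases take it off again. SUMO on a transcription factor is known to change where in the cell it is found and how strongly it activates genes. The comparison addresses whether loss of the lysine at position 91 changes what Sox11 does to gene expression in RGCs.

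The reference sequence around the mutated codon is shown because it is the only designed difference between the groups, with the matching stretch of Sox4 beside it. Sequences were read from GENCODE M21 transcripts on GRCm38. Each is 63 bases of coding sequence, 5′ to 3′, from a gene of 1 exon on the minus strand, and capitals mark codon 91 of Sox11 and the codon that aligns with it.
Sox11, chr12:27342106-27342168, codon 91: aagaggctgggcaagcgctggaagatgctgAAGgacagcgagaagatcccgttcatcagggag
Sox4, chr13:28952689-28952751, codon 101: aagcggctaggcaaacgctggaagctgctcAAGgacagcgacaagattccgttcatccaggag
The capital codon encodes lysine in Sox11 and in Sox4. The Sox4 window held the same base as Sox11 at 54 of 63 positions. Counts per gene do not separate K91A from wild-type transcripts or viral from endogenous Sox11, so the label of the mutation was not checked here.

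The expected counts summed to between 27521981 and 33423552 in the 4 libraries, and 15747 genes passed the filter on low counts. WT replicate 2 stood apart from the other 3 libraries. Xist, which is transcribed from the inactive X chromosome of female cells, was at 526 and 254 CPM (counts scaled to library size) in WT replicates 1 and 2 and at 506 and 481 CPM in K91A replicates 1 and 2. Ddx3y, a gene of the Y chromosome, had 446 and 991 counts with WT Sox11 and 522 and 474 counts with K91A. Thus WT replicate 2 was low for Xist and high for Ddx3y, while WT replicate 1 lay near both K91A libraries. The summed level of 12 RGC markers was 8294 and 5684 TPM (counts scaled to gene length and library total) with WT Sox11. It was 7243 and 8517 TPM with K91A, so the sum was lowest in WT replicate 2. The fall between the WT replicates lay mostly in Nefl (2587 and 1398 TPM), Sncg (2486 and 1562 TPM) and Thy1 (341 and 62.0 TPM). Pou4f2 alone went the other way (57.3 and 80.3 TPM). Sums for Muller and bipolar markers rested mostly on few genes. The 10 markers of Muller glia and progenitors summed to 726 and 647 TPM with WT Sox11 and 667 and 713 TPM with K91A. In WT replicate 1, Vim was at 291, Glul at 217 and Dkk3 at 207 TPM. Sox2 was at 9.80, Rlbp1 at 0.18 and Slc1a3 at 0.04 TPM in that library. The 8 bipolar markers summed to 315 and 283 TPM against 311 and 310 TPM. They include Isl1, also counted as an RGC marker, at 300 TPM in WT replicate 1. The 11 amacrine markers summed to 80.0 and 30.4 TPM with WT Sox11 and 77.1 and 73.4 TPM with K91A, and 4 horizontal cell markers to 111 and 44.5 TPM against 74.3 and 118 TPM, both lowest in WT replicate 2. Lower sums were found for glia and immune cells: 7 astrocyte markers summed to 10.7 and 9.67 TPM with WT Sox11 and 13.3 and 10.2 TPM with K91A, and 10 microglia markers summed to 6.11 and 2.92 TPM against 7.65 and 7.15 TPM. Gfap of astrocytes and Cx3cr1 of microglia had 0 counts in all 4 libraries. The 9 markers of pericytes and fibroblasts summed to 9.46 and 24.0 TPM with WT Sox11 and 19.9 and 12.2 TPM with K91A, highest in WT replicate 2. Among control libraries, replicate 2 was the one with low Xist (95.9 CPM against 400.4 CPM). The part of these values in the results was not tested, and the value without WT replicate 2 is given beside those that moved with it. In bulk RNA, fewer cells of a type and less RNA per cell cannot be told apart.

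Sox11 itself was at similar levels with both viruses. It was at 9178 and 14591 CPM in WT replicates 1 and 2 and at 11971 and 7026 CPM in K91A replicates 1 and 2, against 234 and 332 CPM in the control libraries. The groups interleaved, with K91A replicate 2 lowest, then WT replicate 1, K91A replicate 1 and WT replicate 2. The log2 difference, K91A minus WT, was −0.34 (SE 0.34, 95% interval −1.15 to 0.48, limma-voom adjusted p = 1.00), and without WT replicate 2 it was −0.00084. The interval reached past 2-fold on the lower side, so equal delivery was not bounded within 2-fold (adjusted p = 0.0671 for the limma-voom test against a 2-fold limit). Sox11 took up 0.916% and 1.45% of all counts with WT Sox11 and 1.18% and 0.701% with K91A.

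No gene was called between K91A and WT (0 of 15747, 0%) by limma-voom at a Benjamini-Hochberg adjusted p under 0.05 and a fold change above 1.2. At an unadjusted p under 0.05 there were 108 genes (0.686%), of which 74 had a mean under 1 CPM over the 4 libraries. The quasi-likelihood test of edgeR called 0 genes, with 88 at an unadjusted p under 0.05, and DESeq2 called 2. The median absolute log2 difference between K91A and WT over all genes tested was 0.14, between the 2 K91A replicates 0.16 and between the 2 WT replicates 0.27. The first value compares means of 2 libraries and the others single libraries, so they are not on an equal footing. Library by library, WT replicate 1 lay nearer to K91A replicate 1 (0.13) and K91A replicate 2 (0.11) than to WT replicate 2. WT replicate 2 lay at 0.23 from K91A replicate 1 and at 0.30 from K91A replicate 2. Without WT replicate 2 the median absolute difference was 0.096, and 51 genes had an unadjusted p under 0.05. Without WT replicate 1 it was 0.27, with 1303 such genes, and without K91A replicate 1 or 2 there were 61 and 43. No gene was called in any of these fits.

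**Figure D1:**
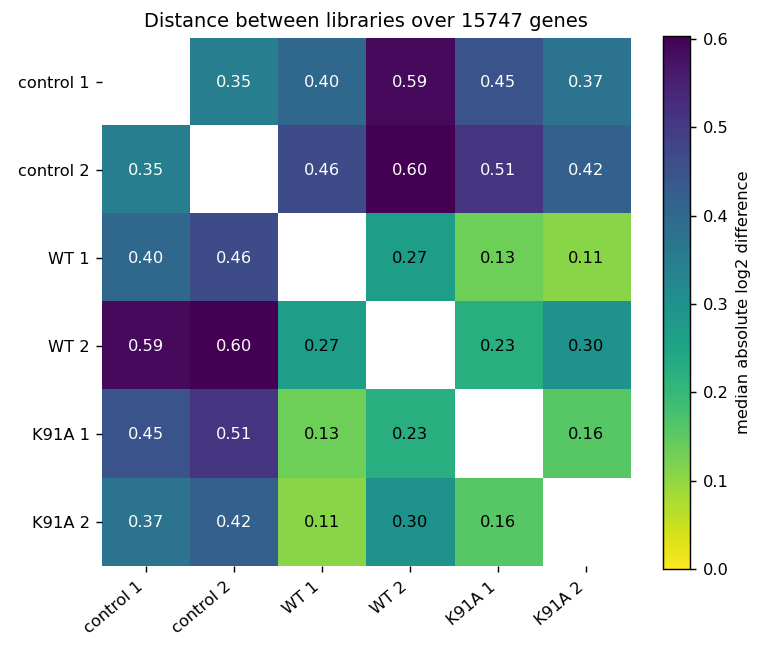
Median absolute log2 difference in CPM over 15747 genes for each pair of the 6 libraries, with the value in each cell and darker cells farther apart. The K91A libraries are at 0.13 and 0.11 from WT replicate 1, while WT replicate 2 is at 0.27 from WT replicate 1.

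How far equality was bounded depended on the expression level. A gene was called bounded within 2-fold when limma-voom tests against a log2 difference of −1 and of 1 both passed at a Benjamini-Hochberg adjusted p under 0.05. This held for 10555 of 15747 genes (67%), and within 1.5-fold for 4296 (27.3%). The 1.5-fold count changed with the setting: it was 0 once Sox11 level entered the fit and 7362 under sample quality weights. Within 1.2-fold, the smallest change that the study counted, equality was bounded for 0 genes. The level set this limit: 3 of 2519 genes with a mean under 1 CPM were bounded within 2-fold, 42.8% of 3702 genes from 1 to 10 CPM, 93.3% of 6998 genes from 10 to 100 CPM and 96.3% of 2528 genes at 100 CPM or more. The farther end of the 95% interval lay at a median of 5.02-fold under 1 CPM and of 1.41-fold at 100 CPM or more. Of the 805 genes with an absolute log2 difference over 1, 641 had a mean under 1 CPM. The failure to call a gene thus left room for differences with a median limit of 1.41-fold at 100 CPM or more, and for much larger ones in weakly expressed genes. At 100 CPM or more, 93 genes were not bounded within 2-fold, among them Thy1, whose 95% interval reached 6.70-fold.

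**Figure D2:**
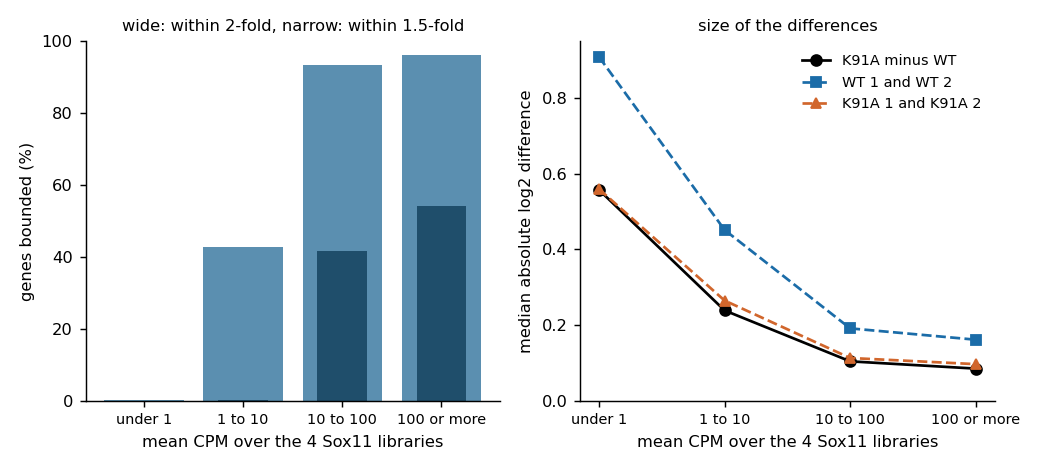
Left, the percentage of genes bounded within 2-fold (wide bars) and within 1.5-fold (narrow bars) between K91A and WT, by mean CPM. Right, the median absolute log2 difference between K91A and WT (black) beside that between the replicates of WT (blue) and of K91A (orange). At every level the black line lies below the line of the WT replicates, but it compares group means and the other lines single libraries. At 100 CPM or more 96.3% of genes were bounded within 2-fold.

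When the 4 libraries were ordered by their Sox11 level, WT and K91A alternated, and many genes ran in that order. On the first principal component over all 6 libraries, which held 59.0% of the variance, K91A replicate 2 was at 9.54, WT replicate 1 at 20.9, K91A replicate 1 at 42.8 and WT replicate 2 at 87.9, in the same order as their Sox11 levels, with the control libraries at −80.1 and −81.0. Of 15746 other genes, 4164 (26.4%) ran through the 4 libraries in the order of Sox11, 1961 rising with it and 2203 falling. Of the rising genes, 1345 lay above both control libraries in all 4 Sox11 libraries and 34 below, and of the falling genes 1481 lay below both controls and 44 above. Thy1, a surface protein of RGCs and the antigen used to purify them, was at 312 CPM in K91A replicate 2, 259 in WT replicate 1, 154 in K91A replicate 1 and 46.3 in WT replicate 2. Prph, which encodes the neurofilament protein peripherin, was at 86.7, 61.0, 28.7 and 3.14 CPM in that order of libraries, and Cd44, a receptor for hyaluronan, at 13.2, 7.06, 2.27 and 1.30 CPM. These 3 genes, shown because they had large differences, fell stepwise with Sox11 across both viruses. Bcl2, an inhibitor of apoptosis, ran the other way, at 42.0, 44.1, 52.5 and 67.1 CPM. With the Sox11 level as a covariate, the median absolute difference between K91A and WT over all genes was 0.11, and no gene was called. Of the 4 libraries, the one with the most Sox11 was also lowest in Xist, so Sox11 level, sex of the cells and culture cannot be told apart as to WT replicate 2.

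**Figure D3:**
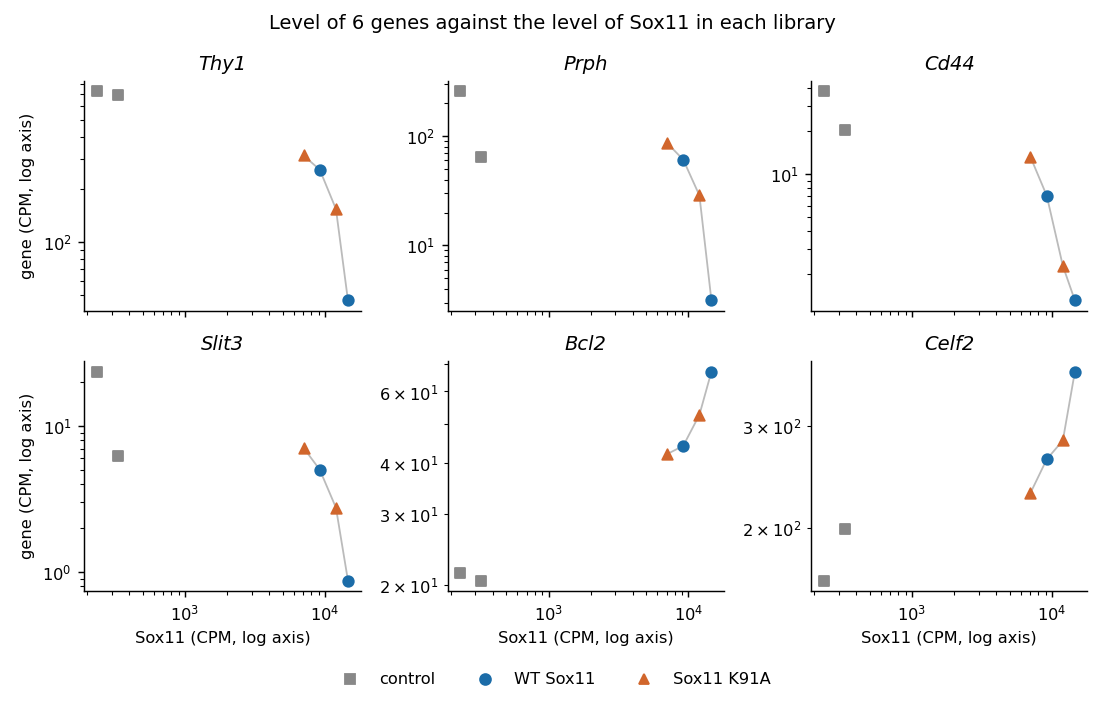
CPM of 6 genes (vertical axis, log scale) against CPM of Sox11 (horizontal axis, log scale) in the 2 control (grey squares), 2 WT (blue circles) and 2 K91A libraries (orange triangles), with a line through the 4 Sox11 libraries. Thy1, Prph, Cd44 and Slit3 fall along the line and Bcl2 and Celf2 rise, with WT and K91A libraries alternating.

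The genes that the study names for its RNA-seq did not pass the test between K91A and WT. The study names them mainly as changed by Sox11, and reports lower Spp1 and Opn4 by qRT-PCR with both viruses. It also reports that Spp1, unlike Opn4, fell further with K91A. Its volcano plot counts genes that K91A lowered or raised more than Sox11 did, whereas limma-voom called none between them here. From gene set enrichment it describes K91A as stronger on genes of neuron generation, migration and axon formation. It describes K91A as weaker on guidance of axons and development of the nervous system. No set test was run here, so these statements on pathways were not tested. Opn4 encodes melanopsin, the photopigment of intrinsically photosensitive RGCs. It was at 0.910 and 0.483 CPM with WT Sox11 and at 0.465 and 0.514 CPM with K91A, against 4.08 and 7.83 CPM in controls. All 4 Sox11 libraries were far below both controls and overlapped each other, with a difference of −0.40 (SE 0.79, limma-voom adjusted p = 1.00) and of −0.88 without WT replicate 2. The interval for Opn4 ran from −2.27 to 1.47 and thus reached a 4.84-fold difference at this depth. Spp1, which encodes osteopontin and marks alpha-RGCs, was at 3.86 and 30.2 CPM with WT Sox11 and at 3.01 and 4.32 CPM with K91A. The difference of −1.68 (SE 1.23, limma-voom adjusted p = 1.00) rested on WT replicate 2, since it was −0.11 without it. Tgfbr2, a receptor of TGF-beta, was at 0.728 and 0.814 CPM with WT Sox11 and at 0.528 and 0.274 CPM with K91A. Both K91A values of Tgfbr2 were lower, with a difference of −0.97 (SE 0.59, interval −2.38 to 0.43, limma-voom adjusted p = 1.00) that stayed at −0.89 without WT replicate 2. Mef2c, a transcription factor, was at 11.7 and 10.1 CPM with WT Sox11 and at 13.8 and 12.6 CPM with K91A, a difference of 0.29 (SE 0.20) in libraries that did not overlap, which was 0.18 without WT replicate 2. Mef2c and Bcl2 were both bounded within 2-fold (limma-voom adjusted p = 0.0103 and 0.00975), with Bcl2 at −0.21 (SE 0.22) and 0.094 without WT replicate 2. Against control, limma-voom called both higher with WT Sox11 (adjusted p = 0.0356 and 0.0163) and with K91A (0.0266 and 0.0330). Opn4 was called lower with WT Sox11 (−3.14, limma-voom adjusted p = 0.0184) and with K91A (−3.54, adjusted p = 0.0251). Spp1, at 14.4 and 43.1 CPM in controls, was called with neither virus (0.372 with WT Sox11, 0.146 with K91A). Tgfbr2, at 1.68 and 2.34 CPM in controls, was called lower with K91A (0.0401) and not with WT Sox11 (0.0720).

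The other SoxC genes and the SUMO machinery were bounded within 2-fold, though not within 1.2-fold. Sox4 was at 222 and 209 CPM with WT Sox11 and at 198 and 225 CPM with K91A, a difference of −0.026 (interval −0.35 to 0.30) and of −0.068 without WT replicate 2. Sox12 was at 102 and 90.3 CPM with WT Sox11 and at 103 and 111 CPM with K91A, higher in both K91A libraries by 0.16 (interval −0.18 to 0.50) and by 0.073 without WT replicate 2. Both were below both control libraries, where Sox4 was at 304 and 309 CPM and Sox12 at 186 and 162 CPM. All 24 SUMO genes were bounded within 2-fold, and 17 within 1.5-fold in the main fit. Their median difference was −0.038, and −0.027 without WT replicate 2. The SUMO proteins Sumo2 and Sumo3 differed by 0.048 and 0.12, and Sumo3 was at −0.030 on the TPM scale and at 0.022 without WT replicate 2. The 10 SUMO proteases had a median of −0.087 (−0.038 without WT replicate 2), and 4 of them were lower in both K91A libraries. The largest difference among those with a mean of at least 1 CPM was that of the protease Senp8, at 14.0 and 19.6 CPM with WT Sox11 and 13.5 and 13.9 CPM with K91A (−0.29, SE 0.24), which was −0.039 without WT replicate 2. Over all genes, both K91A libraries lay above both WT libraries in 13.3% of genes and below in 13.4%, together 26.6%, and 6 of the 24 SUMO genes did not overlap.

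**Figure D4:**
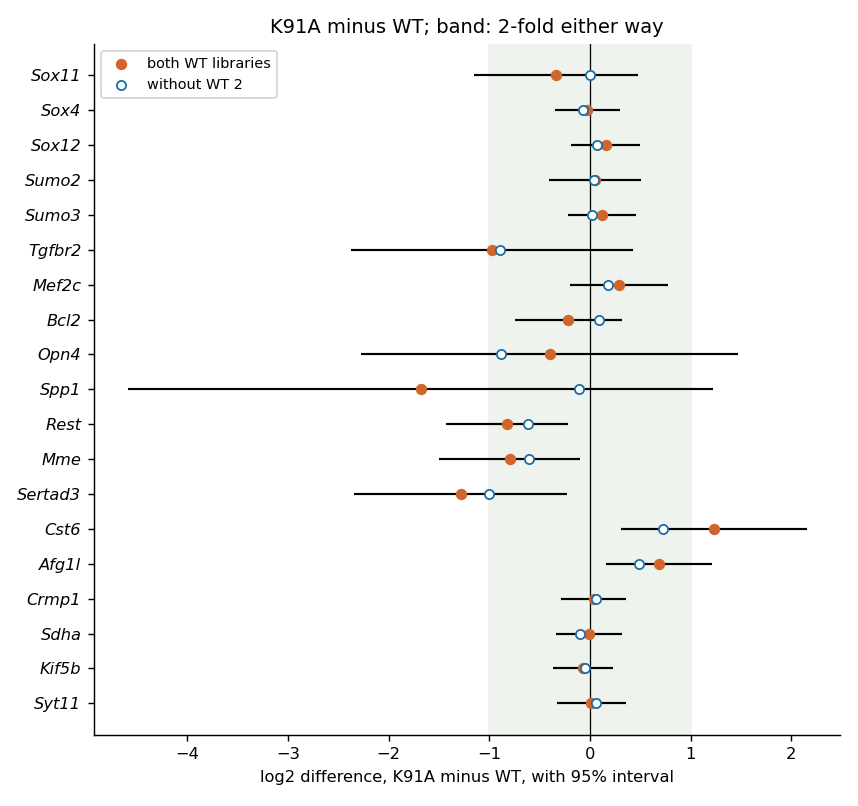
Log2 difference, K91A minus WT, with its 95% interval for 19 genes (orange points and lines) and the difference without WT replicate 2 (open circles). The shaded band spans 2-fold either way. Intervals of Sox4, Sox12, Sumo2 and Sumo3 lie inside the band, and those of Opn4, Spp1 and Tgfbr2 reach well outside it.

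Across 27 lists of genes grouped by function, 902 members were tested. No member was called, 651 (72.2%) were bounded within 2-fold and 203 (22.5%) did not overlap between the groups, against 67% and 26.6% of all genes. List medians ran from −0.19 to 0.18, and 19 lists had an absolute median under 0.1. In 25 lists the median absolute difference was smaller than that between the 2 WT replicates. In 4 it was larger than that between the 2 K91A replicates, among them the ribosomal proteins (0.15 against 0.054). Here too means of 2 libraries are set against single libraries, so these counts do not compare like with like. Of the 8 lists with an absolute median of at least 0.1, 3 kept their sign without WT replicate 2, and of those 3 the cytosolic ribosomal proteins alone were still at least 0.1 from 0.

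**Figure D5:**
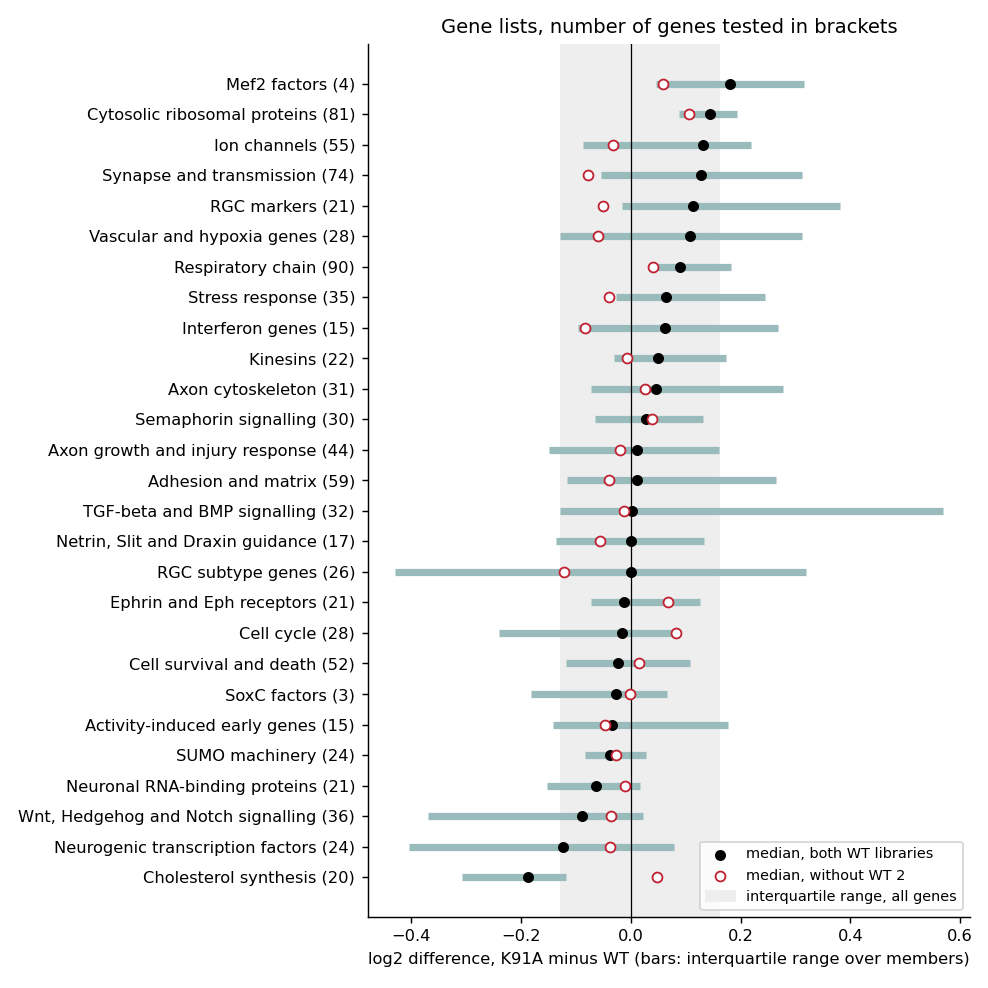
Log2 difference, K91A minus WT, in 27 gene lists: median over members (black), interquartile range over members (bars) and median without WT replicate 2 (open red circles), with the interquartile range of all genes shaded. The medians of synapse, ion channel, RGC marker and cholesterol genes cross 0 when WT replicate 2 is left out, and that of ribosomal proteins stays at 0.11.

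Guidance genes steer growing axons. The 30 semaphorin genes, both ligands and their plexin and neuropilin receptors, had a median difference of 0.027 (0.039 without WT replicate 2). Of these, 4 (13.3%) were higher in both K91A libraries and 2 (6.67%) lower, against 13.3% and 13.4% of all genes. The 21 ephrin and Eph genes had a median of −0.012, with 3 (14.3%) higher and 0 lower. The 17 netrin, Slit and Draxin genes and their receptors had one of 0.0013, with 1 higher and 1 lower (5.88% each). Without WT replicate 2 these medians were 0.068 and −0.056. Bounded within 2-fold were 22, 18 and 13 genes of the 3 lists. Slit3, a repellent ligand of Robo receptors, was at 5.02 and 0.875 CPM with WT Sox11 and at 2.76 and 7.10 CPM with K91A. Its difference of 1.13 (SE 1.16) was −0.20 without WT replicate 2. By contrast Sema4f was at 63.7 and 65.5 CPM with WT Sox11 and at 62.7 and 65.5 CPM with K91A, with a 95% interval that stayed within 1.24-fold. The receptor Unc5c, at 38.6 and 31.7 CPM against 35.1 and 34.7 CPM, had an interval within 1.35-fold. The median of the guidance receptors of netrin and Slit was −0.062 over 9 genes and that of the Eph receptors 0.041 over 13 genes, and −0.12 and 0.068 without WT replicate 2.

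Genes of the axon skeleton and of growth after injury likewise held no call. All 10 tubulins were above 0, with a median of 0.14, which was 0.039 without WT replicate 2. Microtubule-associated proteins and stathmins, 11 genes, had a median of −0.062, and 5 collapsin response mediators one of 0.0098, and without WT replicate 2 these were 0.035 and 0.048. Crmp1, one of the latter, was at 1591 and 1632 CPM with WT Sox11 and at 1678 and 1632 CPM with K91A, with an interval within 1.28-fold. The 5 neurofilament genes had a median of 0.37, with Prph at 1.97 (SE 1.31), and without WT replicate 2 their median was −0.086. The 12 kinases of the DLK and JNK pathway, which carries the injury signal to the nucleus, had a median of 0.0015 (−0.0019 without WT replicate 2), and all 12 were bounded within 2-fold. Among 18 transcription factors of injury the median was −0.038, and −0.016 without WT replicate 2. Mycn, a growth-promoting transcription factor, was at 70.8 and 70.7 CPM with WT Sox11 and at 77.8 and 64.7 CPM with K91A. The 22 kinesins, motors of axonal transport, had a median of 0.049 (−0.0064 without WT replicate 2) and 20 were bounded.

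Of 52 genes of cell survival and death, 43 were bounded within 2-fold, among them 16 of 17 pro-apoptotic genes, 6 of 8 anti-apoptotic genes and 10 of 16 receptors of trophic factors. The 17 pro-apoptotic genes had a median difference of −0.058, the 8 anti-apoptotic genes −0.052 and the 11 genes of p53 and its targets −0.0036, and without WT replicate 2 these were −1.4e-05, −0.10 and 0.055. All 11 p53 genes were bounded within 2-fold, among them Zmat3, at 98.7 and 85.4 CPM with WT Sox11 and at 98.4 and 88.2 CPM with K91A. Against control, p53 genes had a median of 0.72 with WT Sox11 and 0.78 with K91A, and limma-voom called 6 of 11 higher with WT Sox11 (9.96% of all genes) and 5 with K91A (5.81%). These 2 comparisons share the control libraries. Gfra2, a receptor for neurturin, was at 5.53 and 1.57 CPM with WT Sox11 and at 4.66 and 7.58 CPM with K91A (1.05, SE 0.60), with a difference of 0.091 without WT replicate 2.

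The 21 RGC markers had a median of 0.11, with 4 higher and 2 lower in both K91A libraries (19% and 9.52%, against 13.3% and 13.4% of all genes), and −0.050 without WT replicate 2. Thy1 had the largest difference of those with a mean of at least 1 CPM, at 1.00 (SE 0.74) and −0.23 without it. Isl1, a transcription factor of RGCs, was at 282 and 268 CPM with WT Sox11 and at 273 and 289 CPM with K91A, with an interval within 1.27-fold. Of 26 genes of RGC subtypes 4 were bounded within 2-fold, and their median absolute difference between the WT replicates was 0.86, against 0.27 over all genes. Of 8 genes of melanopsin RGCs 2 were above 0, with a median of −0.47, which was −0.13 without WT replicate 2. The 4 genes of alpha-RGCs ranged from −1.68 to 2.45. Among neurogenic transcription factors, 24 genes, the median was −0.12 (0 higher, and 3 or 12.5% lower in both K91A libraries, against 13.4% of all genes) and −0.038 without WT replicate 2. Sox2, a progenitor factor, was at 11.0 and 2.59 CPM with WT Sox11 and at 11.6 and 7.17 CPM with K91A. Myt1l, a factor of mature neurons, was at 247.5 and 249.8 CPM with WT Sox11 and 259.3 and 239.9 CPM with K91A.

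Signalling and adhesion genes held no call. TGF-beta and BMP genes, 32 in all, had a median of 0.0021 (−0.011 without WT replicate 2). In both K91A libraries 4 were higher and 4 lower (12.5% each, against 13.3% and 13.4% of all genes). Smad3, a transducer of TGF-beta, was at 101 and 103 CPM with WT Sox11 and at 96.9 and 96.8 CPM with K91A. Id1, a target of BMP signalling, was at 15.9 and 1.33 CPM with WT Sox11 and at 13.7 and 16.0 CPM with K91A, so that WT replicate 2 alone was low. The 36 Wnt, Hedgehog and Notch genes had a median of −0.089, below 0 in each of 21 alternative settings, with 0 higher and 4 (11.1%) lower in both K91A libraries, against 13.4% of all genes, and −0.037 without WT replicate 2. Fzd4, a Wnt receptor, was at 0.873 and 2.26 CPM with WT Sox11 and at 0.869 and 0.789 CPM with K91A. The 59 adhesion and matrix genes had a median of 0.011 (−0.040 without WT replicate 2), and 8.47% of them did not overlap between groups against 26.6% of all genes.

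The direction of synaptic and channel genes turned when WT replicate 2 was left out. Of 74 genes of the synapse 52 were above 0, with a median of 0.13. Their summed level was 16285 and 14349 CPM with WT Sox11 and 15176 and 16510 CPM with K91A, against 22591 and 19788 CPM in controls, with K91A replicate 2 highest of the 4 and WT replicate 2 lowest. Against WT replicate 1 the median was −0.075 and against WT replicate 2 it was 0.37. The 55 ion channel genes had a median of 0.13, and −0.033 without WT replicate 2. Kcnj6, a potassium channel, was at 6.95 and 1.39 CPM with WT Sox11 and at 4.93 and 7.13 CPM with K91A. Syt11, a synaptotagmin, was at 736 and 783 CPM with WT Sox11 and at 753 and 781 CPM with K91A, with an interval within 1.28-fold. Of the 15 early genes induced by activity, 1 (6.67%) was higher and 2 (13.3%) were lower in both K91A libraries, against 13.3% and 13.4% of all genes. Their median was −0.035, and −0.048 without WT replicate 2. Fosb, an early transcription factor of this list, was at 7.13 and 1.24 CPM with WT Sox11 and at 5.12 and 7.41 CPM with K91A.

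Genes of cholesterol synthesis had the lowest median of the 27 lists, −0.19, with 3 of 20 members above 0. Their summed level was 1941 and 3036 CPM with WT Sox11 and 1953 and 2150 CPM with K91A, against 2453 and 3038 CPM in controls. Thus WT replicate 2 was high and WT replicate 1 lay with the K91A libraries, and without WT replicate 2 the median was 0.047. Idi1, an enzyme of isoprenoid synthesis, was at 59.2 and 130 CPM with WT Sox11 and 55.1 and 67.4 CPM with K91A. Srebf2, which encodes the main activator of these genes, was at 361 and 422 CPM with WT Sox11 and 359 and 389 CPM with K91A, with an interval within 1.35-fold. Stress response genes, 35 in all, had a median of 0.064, and −0.039 without WT replicate 2. In both K91A libraries 6 were higher and 6 lower (17.1% each, against 13.3% and 13.4% of all genes). Interferon genes, 15 in all, had a median of 0.062 (−0.084 without WT replicate 2), with H2-K1, a class I histocompatibility gene, at 14.7 and 1.93 CPM with WT Sox11 and 10.1 and 15.2 CPM with K91A. The 28 vascular and hypoxia genes had a median of 0.11, and −0.060 without WT replicate 2. The 28 cell cycle genes had a median of −0.017, which was 0.083 without WT replicate 2. The 21 neuronal RNA-binding proteins had one of −0.064 (−0.011 without it), with all 21 bounded within 2-fold.

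Cytosolic ribosomal proteins were the list with the most members on one side. Of 81 genes, 52 (64.2%) were higher in both K91A libraries than in both WT libraries and 0 were lower, against 13.3% and 13.4% of all genes, and 78 were above 0. Their summed level was 14584 and 13891 CPM with WT Sox11 and 15838 and 15448 CPM with K91A, against 13618 and 19727 CPM in the control libraries. Both K91A libraries were above both WT libraries, while the 2 controls were farther apart than all 4. The difference was small, with a median of 0.15, and all 81 genes were bounded within 2-fold. Without WT replicate 2 the median was 0.11, and both K91A libraries were above WT replicate 1 in 66 of 81 genes, against 4387 of 15747 genes in all. It was 0.21 with the Sox11 level as a covariate, 0.27 with a term for the libraries with low Xist, and between 0.11 and 0.27 over 21 alternative settings. The largest among those with a mean of at least 1 CPM was Rplp1, a protein of the ribosomal stalk, at 260 and 177 CPM with WT Sox11 and 284 and 279 CPM with K91A (0.39, SE 0.21, limma-voom adjusted p = 1.00), and without WT replicate 2 it was at 0.12. Genes of the respiratory chain, 90 in all, leaned the same way. Of these, 25 were higher and 4 lower in both K91A libraries, 77 were above 0 and 86 were bounded, with a median of 0.089 and 0.041 without WT replicate 2. Of their 77 nuclear genes 23 were higher and 2 lower, and of the 13 mitochondrial genes 2 were higher and 2 lower. No member of either list was called, and genes of a list are not independent.

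The genes with the smallest p included Rest and a set of genes with near-identical copies. Rest, which encodes a repressor of neuronal genes, was at 15.2 and 20.2 CPM with WT Sox11 and at 11.8 and 8.33 CPM with K91A, against 4.62 and 5.97 CPM in controls. The 6 libraries fell into the order control, K91A and WT without overlap. The difference of Rest was −0.83 (SE 0.26, interval −1.43 to −0.22, unadjusted p = 0.0145 and adjusted p = 1.00 by limma-voom), and −0.61 without WT replicate 2. Against control, Rest was at 1.73 with WT Sox11 (adjusted p = 0.0149, limma-voom) and at 0.90 with K91A (adjusted p = 0.103). Mme, the endopeptidase neprilysin, was at 4.29 and 5.55 CPM with WT Sox11 and at 2.98 and 2.68 CPM with K91A (−0.80, SE 0.30). Sertad3, a transcriptional coregulator, was at 1.42 and 2.05 CPM against 0.652 and 0.754 CPM (−1.29, SE 0.45), and the zinc finger gene Zfp541 at 1.27 and 1.81 CPM against 0.621 and 0.686 CPM (−1.22, SE 0.46). Cst6, a cystatin, was at 2.04 and 1.06 CPM with WT Sox11 and at 3.32 and 3.46 CPM with K91A (1.23, SE 0.39), where controls were at 3.47 and 3.37 CPM. Afg1l, a mitochondrial ATPase, was at 7.46 and 5.79 CPM against 10.5 and 10.5 CPM (0.68, SE 0.22), with controls at 11.5 and 11.3 CPM. Srrm4os, antisense to the neuronal splicing gene Srrm4, was at 2.44 and 1.81 CPM against 4.22 and 3.57 CPM (0.90, SE 0.32), and Gm12758 at 1.60 and 0.422 CPM against 3.66 and 4.46 CPM (2.33, SE 0.62). Without WT replicate 2 the differences were −0.60 for Mme, −1.01 for Sertad3, −0.95 for Zfp541 and 0.73 for Cst6. They were 0.49 for Afg1l, 0.67 for Srrm4os and 1.32 for Gm12758. These genes were chosen for groups that did not overlap, so the choice itself fixed that their direction stayed the same. Since the use of strand in counting is not given, reads of Srrm4os and Srrm4 may not be told apart.

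Of the 16 genes chosen for their small p, 7 had a transcript of which at least 90% matched another gene at 95% identity or more, so the split of reads between copies is uncertain. Nanp, a sialic acid phosphatase, was at 0.655 and 0 CPM with WT Sox11 and at 3.17 and 3.12 CPM with K91A, and its copy Gm6741 at 7.35 and 7.69 CPM against 5.03 and 4.46 CPM. Their sum was 8.01 and 7.69 CPM with WT Sox11 and 8.19 and 7.58 CPM with K91A, a log2 difference of 0.0058. Likewise Gm7332, at 5.50 and 6.30 CPM against 3.26 and 2.95 CPM, matched Ppp1r14b over its whole length, and the sum of the pair was 137 and 167 CPM with WT Sox11 and 155 and 143 CPM with K91A. Gm10925 matched mt-Atp6, a subunit of the mitochondrial ATP synthase. mt-Atp6 was at 447 and 1081 CPM with WT Sox11 and at 364 and 387 CPM with K91A, and Gm10925 at 1591 and 1012 CPM against 2024 and 1829 CPM. The sum of the pair was 2038 and 2093 CPM with WT Sox11 and 2388 and 2217 CPM with K91A, so that the opposite differences of the copies became 1 difference of 0.16. Gm29216, at 338 and 149 CPM against 420 and 437 CPM, matched mt-Co1, and their sum differed by 0.067. Pgk1-rs7, at 2.18 and 1.39 CPM against 4.31 and 4.49 CPM, matched the glycolytic gene Pgk1, and their sum, 268 and 189 CPM with WT Sox11 and 238 and 283 CPM with K91A, overlapped between the groups. Gm6710, at 4.04 and 4.68 CPM against 2.02 and 2.30 CPM, and Duxbl2, at 5.13 and 3.17 CPM against 0.031 and 2.54 CPM, also have copies of 100% identity.

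The 2 genes that DESeq2 called were singled out after their values were seen. Gm26825 (chromosome 5) had 66 and 46 counts with WT Sox11 and 0 and 0 counts with K91A, while controls had 65 and 60 counts. ENSMUSG00000102226.1, which has no symbol in GENCODE M21, had 52 and 97 counts with WT Sox11 and 0 counts in the other 4 libraries. DESeq2 gave both an adjusted p of 0.0024, and limma-voom gave unadjusted p-values of 2.4e-04 and 8.0e-05 with an adjusted p of 1.00.

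Against control, the 2 viruses called unequal numbers of genes. Limma-voom called 3171 genes (20.1%) with WT Sox11, 1568 higher (9.96%) and 1603 lower (10.2%), and 1672 genes (10.6%) with K91A, 915 higher (5.81%) and 757 lower (4.81%). Both comparisons share the control libraries, and the direct comparison called no gene, so the unequal counts do not show that the viruses differ. Side by side, the median change from control of synaptic genes was −0.75 with WT Sox11 and −0.44 with K91A, that of stress response genes −0.72 and −0.70, and that of ephrin and Eph genes 0.51 and 0.48. In the list of synaptic genes of 74 members, 26 were called lower with WT Sox11 (10.2% of all genes) and 12 with K91A (4.81%), and in the respiratory chain 31 and 9 of 90.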

How the data were processed

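The data are 6 libraries of RNA from cultured mouse RGCs, 2 each with control, Sox11 and Sox11 K91A AAV. The authors aligned reads to mm10 with STAR and counted them with RSEM. The deposited tables, 1 per library, hold expected counts per gene, which are not normalized, and TPM values, which the authors' RSEM run scaled to a common total. Replicates were not pooled. Tool versions, annotation and use of strand are not given in the sources used here. Symbols came from GENCODE M21 (42462 of 43346 Ensembl genes), and 96 spike-in entries with 0 counts and 26248 other entries with at most 1 count per library were left out.

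Expected counts were rounded, filtered with filterByExpr over 3 groups (edgeR 4.0.16) and scaled by TMM, which kept 15747 genes. CPM values use the TMM-scaled library sizes. All 6 libraries entered 1 limma-voom fit (limma 3.58.1, R 4.3.3), with K91A minus WT as contrast, two-sided tests and Benjamini-Hochberg adjustment over all genes, as in the study's methods (FDR 0.05, fold change 1.2). Tests against 2-fold and 1.5-fold limits came from the same fit. Differences are log2 values with SE from this fit unless stated. No chance test was run on lists. The fit was also run on simulated counts with a capped spread and planted changes larger than 2-fold. That run does not speak for differences near the 2-fold and 1.5-fold limits.

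Members, gene lists and the rule for named genes were chosen with earlier results of these data known. Named genes are those the study text names, the 8 with the smallest p in each direction (mean of at least 1 CPM, symbol, no overlap between groups), in each list the largest difference and the tightest bound among members with a mean of at least 1 CPM, all members of lists of up to 4 genes, and some SUMO and marker genes. A few items that this rule names are not reported here. Of the listed names, 5 matched no gene (Ntn3, Cap23, Tusc5, Bim and Tp53inp1). Copies were searched with BLAST+ 2.17.0 at 95% identity.

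Alternatives were edgeR, DESeq2 1.42.0, quality weights, limma-trend on log2(TPM + 1) and log2(TPM + 0.1), other scalings and filters, only the 4 Sox11 libraries, the replicate number as a block, the Sox11 level as a covariate, a term for libraries with low Xist, unrounded counts, other thresholds and leaving out each replicate. A block with the K91A numbers exchanged, list medians under other fits, sums of copies and the order by Sox11 were chosen after seeing the data. Tables and plots used Python 3.11.15, pandas 2.3.3 and matplotlib 3.10.9.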

Additional observations from a re-analysis of the deposited data

How the results depend on the processing

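No gene was called between K91A and WT in any setting run except DESeq2, which called 2. In the main fit 10555 genes were bounded within 2-fold, 4296 within 1.5-fold and 0 within 1.2-fold. The count within 1.5-fold was 7362 with sample quality weights, and 0 with the replicate block, the Sox11 covariate and both TPM scales. That count was also 0 when every gene with at least 1 count was kept, and 7407 when the fit held the 4 Sox11 libraries alone. Counts of bounded genes below are those within 2-fold. Leaving out each replicate gave 0 calls each time, 7725 to 10891 bounded genes, a median absolute difference of 0.096 to 0.27 and a Sox11 difference of −0.72 to 0.051. The replicate block gave 0 calls, 10584 bounded genes and a Sox11 difference of −0.34, and 2679 and 1402 calls for WT and K91A against control. Same-numbered deviations correlated at 0.23 (control and WT), −0.028 (control and K91A) and −0.23 (WT and K91A). The labels do not say whether same-numbered libraries were prepared together, and these values cannot settle it. With the K91A numbers exchanged in the replicate block there were 0 calls and 11070 bounded genes. Genes that changed sign were not called in any of these fits. Sumo3 was at −0.030 on both TPM scales. With the Sox11 level as a covariate, Slit3 was at −0.23, Cd44 −0.064, Sox2 −0.053, Kcnj6 −0.19, Fosb −0.14 and Mef2d −0.13. With a term for low Xist, Slit3 was at −0.081, Sox2 −0.39, Kcnj6 −0.22, Fosb −0.031 and Mef2d −0.24. With each replicate left out, ranges were −0.88 to 0.033 for Opn4, −0.12 to 0.065 for Sox4, −0.065 to 0.015 for Mef2a, −0.50 to 0.094 for Bcl2, −0.20 to 2.31 for Slit3, −0.29 to 3.99 for Prph, −0.41 to 2.19 for Cd44, −0.23 to 2.26 for Thy1, −0.26 to 1.83 for Sox2, −0.11 to 3.47 for Id1, −0.086 to 2.53 for Lama4, −0.24 to 2.09 for Kcnj6, −0.22 to 2.31 for Fosb, −0.25 to 2.67 for H2-K1, −1.08 to 0.042 for Idi1, −1.12 to 0.14 for Cenpf and −0.090 to 0.25 for Mef2d. The cause was not tested. A fit that leaves a group with 1 library assumes that it varies like the others. No scaling moved the median of all genes by over 0.1. The edgeR test gave no value for bounded genes. Tests against a fold limit were limited by depth below 10 CPM.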
